A study of Danio rerio with 20 samples.

Results

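The genes described here are 39 genes of methionine, cysteine and folate one-carbon metabolism in zebrafish larvae, out of 32512 genes in the count table of the series. They were taken from the study's list of metabolic genes, in which 58 genes stand under the KEGG-type headings for cysteine and methionine metabolism and for the one carbon pool by folate. Of these, 19 were left out because they are also listed under glycolysis, TCA cycle, pyruvate, purine, pyrimidine, glycine, serine and threonine or glyoxylate headings, or because they are *tat*. The rule itself uses no measured value, but the 39 genes were chosen with earlier results of these data known. By role, 9 belong to the folate pool, 5 to the synthesis of S-adenosylmethionine (AdoMet), 4 are S-adenosylhomocysteine (AdoHcy) hydrolase or proteins like it, 2 remethylate homocysteine, 6 are DNA methyltransferases, 4 act in methionine salvage, 3 in polyamine synthesis and 6 in transamination and sulfur transfer. Of the 39, 29 stand under the cysteine and methionine heading, 11 under the folate heading and 1 under both.

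Folates carry single carbon units at several oxidation states. Mitochondrial enzymes release such units as formate, and cytosolic enzymes use them to make purines and thymidylate or to turn homocysteine back into methionine. Methionine is activated to AdoMet, the methyl donor for DNA, RNA, protein and small molecules, and the AdoHcy left after methyl transfer is cleaved to homocysteine. The liver is the main site of methionine turnover in vertebrates, while thymidylate synthesis and maintenance DNA methylation go with DNA replication.

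The series measured messenger RNA by sequencing in larvae at 5 days post fertilization, kept under 12 h light and 12 h dark and sampled at *Zeitgeber* times ZT3, ZT9, ZT15 and ZT21, in hours after lights on. *rx3 strong* larvae are homozygous for the rx3 t25327 allele, lack eyes and are the study's model of glucocorticoid (GC) deficiency. *rx3 weak* larvae are homozygous for t25181, also lack eyes and are used in the study as a line without GC deficiency. A single group of wild-type siblings is the reference for both. For the RNA measurements, the paper names these larvae as siblings of the *rx3 strong* mutants. In *rx3 weak* larvae, an effect of the allele and one of line or clutch therefore cannot be told apart. A further 4 libraries of *rx3 strong* larvae and 4 of wild-type siblings came from larvae kept in 25 µM dexamethasone (DEX), a synthetic GC. Each of the 5 groups therefore held 4 libraries, 1 per time point, each from pooled larvae raised at 30 per flask, and there was no second library of any group at the same time. The strain is labelled as mixed TU, AB and WIK, and the larvae without DEX, labelled untreated, received the solvent DMSO according to the column names. Libraries without DEX and libraries with DEX were made with different kits, so an effect of DEX and one of the kit cannot be told apart, and levels are not compared between them. In whole larvae, fewer cells of a type and less RNA per cell cannot be told apart.

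Library totals ran between 16427280 and 22204708 counts without DEX and between 12586879 and 49738048 counts with DEX, and the 39 genes together took 0.271% to 0.384% of the counts of a library. *rx3* itself, the mutated gene, stood at 2.09 to 3.09 CPM (counts scaled to a common library size) in *rx3 strong* larvae and at 1.77 to 2.51 CPM in *rx3 weak* larvae, against 4.43 to 7.11 CPM in wild-type siblings. It was lower in both mutants, by 1.06 and 1.50 on the log2 scale (edgeR, adjusted p = 0.00095 and 4e-05). The summed level of 8 eye markers was 12.6 to 21.7 CPM in *rx3 strong*, 69.7 to 143 CPM in *rx3 weak* and 1250 to 1805 CPM in wild-type larvae. A sum of 9 liver markers was 5700 to 6247 CPM in *rx3 strong*, 3854 to 6237 CPM in *rx3 weak* and 3540 to 4833 CPM in wild-type larvae, and 7 of the 9 were higher in *rx3 strong* than in wild-type larvae. The sum of 4 GC target genes was 190 to 232 CPM in *rx3 strong*, 294 to 522 CPM in *rx3 weak* and 278 to 515 CPM in wild-type larvae.

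To ask which of these genes changed their daily mean level in GC-deficient larvae, *rx3 strong* mutants were compared with wild-type siblings over the 4 time points, with time of day as a factor in the model. Of the 39 genes, 8 differed (20.5%), against 18.6% of all genes tested, a share close to that of genes in general. With a direction, 5 were higher, against 8.4% of all genes, and 3 lower, against 10.2%. Higher in *rx3 strong* were the folate enzymes *mthfd1l*, *aldh1l1* and *aldh1l2*, the AdoHcy hydrolase *ahcy* and the sulfurtransferase *MPST*. Lower were the AdoMet synthetase *mat1a*, the AdoHcy hydrolase-like *ahcyl2* and the mitochondrial aspartate aminotransferase *got2a*. The median log2 difference over the 39 genes was -0.07, against 0.01 over all genes tested. *mthfd1l* moved 3.85-fold, while the other 7 differed by less than 0.5 on the log2 scale. The count was 4 without wild-type ZT3, 5 without wild-type ZT9, *rx3 strong* ZT9 or *rx3 strong* ZT21, 13 without *rx3 strong* ZT15, and 3 with time point left out of the design. Of all genes, these fits called 3120, 3350, 3479, 3432, 4071 and 2078 in that order, against 4252 with all libraries. Without *rx3 strong* ZT15 the count among the 39 genes thus rose, while that of all genes did not.

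**Figure D1:**
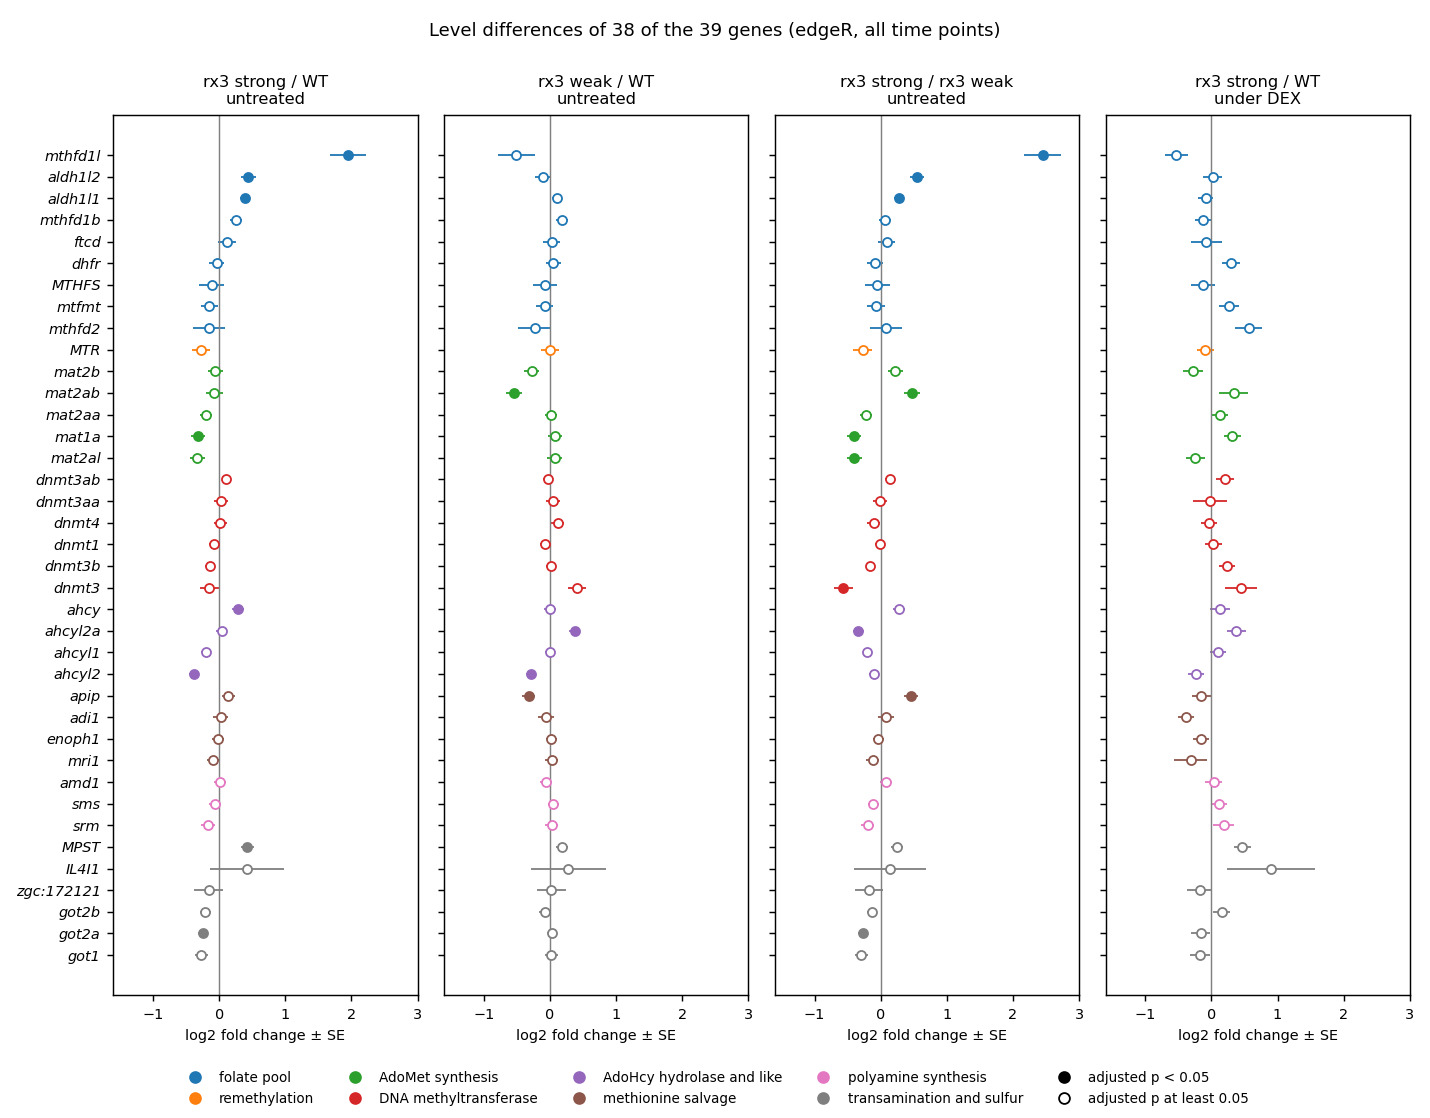
Log2 difference in daily mean level (x axis, log2 scale, with its standard error) of 38 of the 39 genes, ordered by role down the y axis, for *rx3 strong* over wild-type, *rx3 weak* over wild-type and *rx3 strong* over *rx3 weak* larvae without DEX, and for *rx3 strong* over wild-type larvae with DEX. Filled points had an adjusted p under 0.05. There are 8, 4, 10 and 0 filled points in the 4 panels, and *mthfd1l* is the gene that stands farthest from 0 in the first and in the third.

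*mthfd1l* (ENSDARG00000042221) encodes the mitochondrial formyltetrahydrofolate synthetase, the enzyme that releases formate to the cytosol. At ZT3, ZT9, ZT15 and ZT21 it stood at 97.1, 100, 111 and 95.8 CPM in *rx3 strong* larvae. In *rx3 weak* larvae the 4 libraries had 39.6, 25.6, 11.7 and 9.50 CPM, and in wild-type siblings 47.2, 36.7, 29.9 and 8.62 CPM. The groups without DEX did not overlap: the lowest *rx3 strong* library was above the highest *rx3 weak* and wild-type libraries. In *rx3 strong* the level was about the same at the 4 times, whereas both other groups were highest at ZT3 and lowest at ZT21. The summed liver markers had 5735, 6166, 5700 and 6247 CPM in *rx3 strong*, 6237, 4742, 4129 and 3854 CPM in *rx3 weak* and 4833, 4812, 3670 and 3540 CPM in wild-type larvae. In *rx3 weak* and wild-type larvae this sum was also highest at ZT3 and lowest at ZT21. In *rx3 strong* larvae the sum was lowest at ZT15 and highest at ZT21, where *mthfd1l* was highest and lowest. The part of the liver markers in the course of *mthfd1l* was not tested. The log2 difference was 1.94 ± 0.27 (SE) from wild-type larvae (adjusted p = 3.8e-05) and 2.45 ± 0.28 from *rx3 weak* larvae (5.47-fold, adjusted p = 6.1e-06). Both calls held with each of the 12 libraries left out in turn, with log2 differences from wild-type larvae of 1.56 to 2.26. *rx3 weak* and wild-type larvae differed by -0.51 ± 0.28, which did not pass the test (adjusted p = 0.27).

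The cytosolic 10-formyltetrahydrofolate dehydrogenase *aldh1l1* (ENSDARG00000077004), a liver enzyme in vertebrates that removes formyl groups from the folate pool, had 265, 294, 236 and 225 CPM in *rx3 strong*, 248, 217, 210 and 169 CPM in *rx3 weak* and 222, 199, 190 and 171 CPM in wild-type larvae at the 4 times. All *rx3 strong* libraries were above all wild-type libraries, and the *rx3 weak* libraries overlapped both. On the log2 scale it differed by 0.38 ± 0.08 from wild-type larvae (1.31-fold, adjusted p = 0.0012, called with each library left out in turn) and 0.28 ± 0.08 from *rx3 weak* larvae (adjusted p = 0.02, lost without *rx3 weak* or *rx3 strong* ZT9 or ZT21 at 0.058 to 0.092). Its mitochondrial counterpart *aldh1l2* (ENSDARG00000070230) had 45.6, 29.9, 22.5 and 22.8 CPM in *rx3 strong*, 26.8, 18.7, 14.4 and 21.4 CPM in *rx3 weak* and 28.0, 20.2, 18.7 and 20.1 CPM in wild-type larvae. Here the groups overlapped, although the *rx3 strong* library was the highest of the 3 at each time. The log2 difference was 0.44 ± 0.11 from wild-type larvae (1.36-fold, adjusted p = 0.0069) and 0.55 ± 0.11 from *rx3 weak* larvae (adjusted p = 0.0017). The call against wild-type larvae was lost without the wild-type ZT3 library (adjusted p = 0.057). The part of the liver markers, which were also higher in *rx3 strong*, in these folate differences was not tested.

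The other 6 genes of the folate pool did not pass the test between *rx3 strong* and wild-type larvae, and none of the 9 passed it between *rx3 weak* and wild-type larvae. They span a wide range of levels. The trifunctional cytosolic enzyme *mthfd1b* had 76.1 to 95.4 CPM in *rx3 strong* and 61.7 to 93.8 CPM in wild-type larvae, and *ftcd*, which feeds carbon units from histidine breakdown into the pool, 68.1 to 106 and 49.2 to 112 CPM. Dihydrofolate reductase *dhfr* had 8.49 to 24 CPM in *rx3 strong* and 8.67 to 22.1 CPM in wild-type larvae. The lowest levels were those of the methenyltetrahydrofolate synthetase *MTHFS* (2.80 to 4.07 CPM in *rx3 strong* and 3.05 to 4.37 CPM in wild-type larvae), the mitochondrial methionyl-tRNA formyltransferase *mtfmt* (6.69 to 8.61 and 7.41 to 10.1 CPM) and the mitochondrial dehydrogenase and cyclohydrolase *mthfd2* (1.32 to 5.54 and 1.86 to 3.89 CPM).

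**Figure D2:**
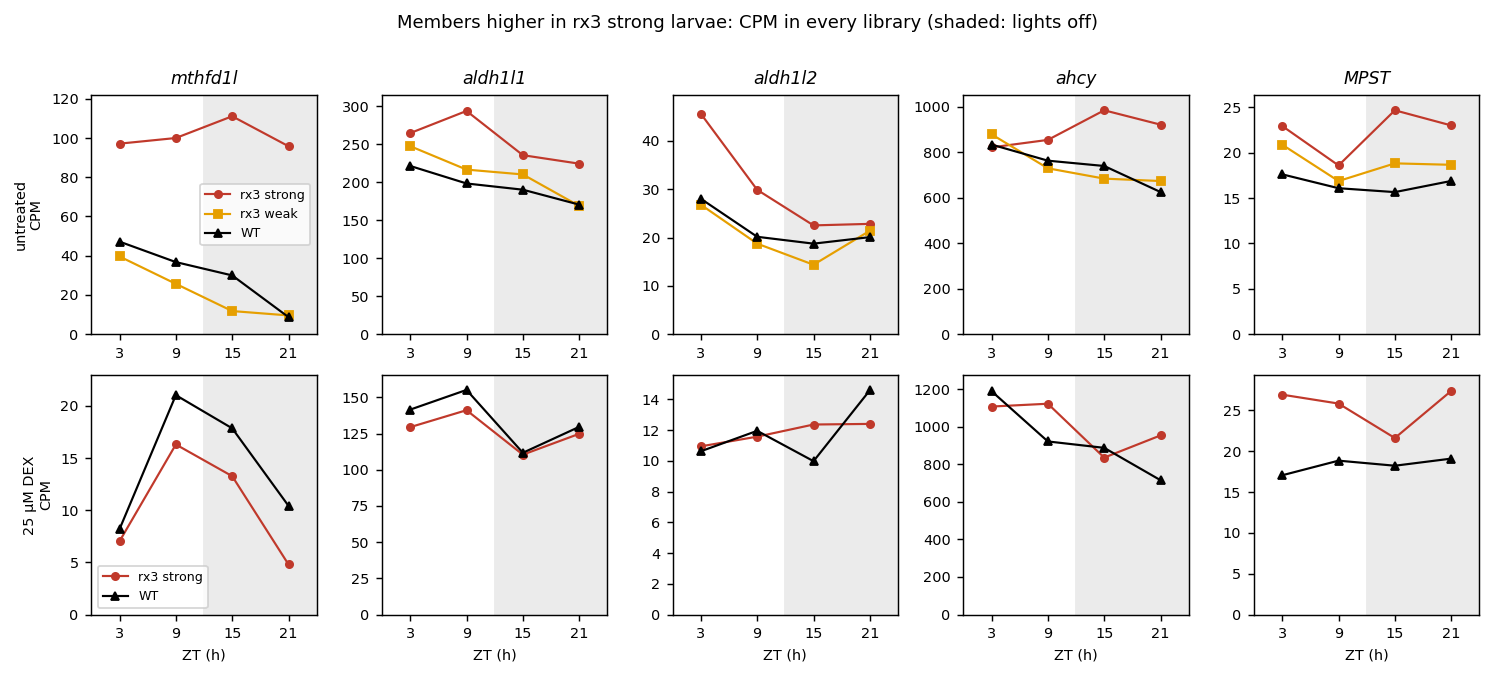
Normalized level (y axis, CPM) of *mthfd1l*, *aldh1l1*, *aldh1l2*, *ahcy* and *MPST* at each *Zeitgeber* time (x axis, h), with 1 library per point, for *rx3 strong*, *rx3 weak* and wild-type larvae without DEX (upper row) and *rx3 strong* and wild-type larvae with DEX (lower row). Without DEX, *mthfd1l* lies between 95.8 and 111 CPM in *rx3 strong* and at or below 47.2 CPM in both other groups, whereas with DEX the *rx3 strong* points lie below the wild-type points at each time.

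Among the AdoMet synthetases, *mat1a* (ENSDARG00000039605), the liver form in mammals, had 210, 186, 164 and 166 CPM in *rx3 strong*, 367, 251, 152 and 230 CPM in *rx3 weak* and 326, 226, 182 and 195 CPM in wild-type larvae. The *rx3 strong* library was below the wild-type library at each time, and the gap was widest at ZT3, but the ranges overlapped. The log2 difference was -0.32 ± 0.10 from wild-type larvae (adjusted p = 0.039) and -0.40 ± 0.10 from *rx3 weak* larvae (adjusted p = 0.016). The call against wild-type larvae was lost without wild-type ZT3, ZT9 or ZT15 or *rx3 strong* ZT3, ZT9 or ZT21 (adjusted p = 0.062 to 0.16), and the call against *rx3 weak* larvae without *rx3 weak* ZT3, ZT9 or ZT21 or *rx3 strong* ZT3 (0.065 to 0.088). The summed liver markers were higher in *rx3 strong* than in wild-type larvae at each time. Against *rx3 weak* larvae they were lower in *rx3 strong* at ZT3 and higher at ZT9, ZT15 and ZT21. Their part in the levels of *mat1a* was not tested.

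*mat2al* (ENSDARG00000063665), a further AdoMet synthetase of the *mat2a* type, showed the same kind of profile at a lower level, with 23.6, 21.8, 23.3 and 25.2 CPM in *rx3 strong*, 42.5, 29.4, 21.2 and 34.4 CPM in *rx3 weak* and 35.3, 27.7, 23.4 and 33.5 CPM in wild-type larvae. It was about even over the 4 times in *rx3 strong*, and the groups overlapped through the low *rx3 weak* and wild-type libraries at ZT15. The log2 difference from *rx3 weak* larvae was -0.40 ± 0.11 (adjusted p = 0.026), a call lost without *rx3 weak* ZT3, ZT9 or ZT21 or *rx3 strong* ZT3, ZT9 or ZT21 (0.065 to 0.14). Against wild-type larvae it was -0.33 ± 0.11 and did not pass in the main edgeR fit (adjusted p = 0.051). It did pass with DESeq2, with DESeq2 size factors, without the low-count filter and with only the 8 libraries compared.

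*mat2ab* (ENSDARG00000037121), whose mammalian counterpart makes AdoMet outside the liver, had 47.7, 9.11, 4.37 and 31.2 CPM in *rx3 strong*, 35.6, 6.93, 2.16 and 25.1 CPM in *rx3 weak* and 44.3, 9.69, 3.14 and 44.1 CPM in wild-type larvae. The daily course was steep in all 3 groups, and *rx3 weak* was the lowest of the 3 at each time. The log2 difference between *rx3 weak* and wild-type larvae was -0.54 ± 0.12 (adjusted p = 0.0056, lost without the wild-type ZT21 library at 0.067). Between *rx3 strong* and *rx3 weak* larvae it was 0.47 ± 0.13 (adjusted p = 0.018, lost at 0.075 without *rx3 weak* ZT21 or *rx3 strong* ZT3). *mat2aa*, the most abundant AdoMet synthetase per gene length (a mean of 167 RPKM, or CPM per kilobase of gene length, in wild-type larvae), and the regulatory subunit *mat2b*, at 14.8 to 18.03 CPM in *rx3 strong* and 14.7 to 18.9 CPM in wild-type larvae, passed no level test.

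AdoHcy hydrolase *ahcy* (ENSDARG00000005191), which clears the AdoHcy made by methyl transfer, was the most abundant of the 39 genes per gene length, with a mean of 385 RPKM in wild-type larvae. Its levels were 822, 854, 985 and 922 CPM in *rx3 strong*, 879, 729, 684 and 673 CPM in *rx3 weak* and 834, 763, 740 and 625 CPM in wild-type larvae. *rx3 strong* was close to the other groups at ZT3 and above them at the later times. The log2 difference from wild-type larvae was 0.28 ± 0.09 (1.22-fold, adjusted p = 0.04), but this call held in only 3 of the 12 fits with a library left out (adjusted p up to 0.22). It was lost without any 1 of the 4 wild-type libraries, *rx3 weak* ZT9 or ZT21, or *rx3 strong* ZT9, ZT15 or ZT21.

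The proteins like AdoHcy hydrolase, known in mammals as regulators of calcium channels and ion transport rather than as hydrolases, moved in other directions. *ahcyl2* (ENSDARG00000039343) had 84.6, 78.2, 70.2 and 89.8 CPM in *rx3 strong*, 85.9, 82.0, 80.1 and 97.6 CPM in *rx3 weak* and 109, 113, 86.2 and 113 CPM in wild-type larvae. It was below wild-type in both mutants at each time, and the gaps were smallest at ZT15. Its log2 difference was -0.38 ± 0.07 in *rx3 strong* (adjusted p = 0.001, called with each library left out in turn) and -0.28 ± 0.07 in *rx3 weak* (adjusted p = 0.014, lost without wild-type ZT9, *rx3 weak* ZT3 or *rx3 weak* ZT9 at 0.059 to 0.081). The 8 eye markers were lower in both mutants as well, and their part in this result was not tested.

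Its paralogue *ahcyl2a* (ENSDARG00000051873) had 49.1, 53.5, 54.3 and 56.1 CPM in *rx3 strong*, 78.1, 66.0, 64.4 and 61.9 CPM in *rx3 weak* and 56.3, 49.4, 53.4 and 49.2 CPM in wild-type larvae. Here the *rx3 weak* larvae stood apart, with 4 libraries above those of both other groups. The log2 difference was 0.38 ± 0.08 between *rx3 weak* and wild-type larvae (adjusted p = 0.0045, called with each library left out in turn) and -0.34 ± 0.08 between *rx3 strong* and *rx3 weak* larvae (adjusted p = 0.011, lost without *rx3 weak* ZT3 or *rx3 strong* ZT3 at 0.066 to 0.068). *ahcyl1*, with 83.2 to 97.5 CPM in *rx3 strong* and 95.3 to 117 CPM in wild-type larvae, passed no level test in the main edgeR fits. Between these 2 groups it was called with DESeq2 and with DESeq2 size factors.

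The sulfurtransferase *MPST* (ENSDARG00000093235), of the family that moves sulfur from mercaptopyruvate or thiosulfate, had 22.9, 18.6, 24.7 and 23.0 CPM in *rx3 strong*, 20.9, 16.9, 18.8 and 18.7 CPM in *rx3 weak* and 17.6, 16.1, 15.7 and 16.9 CPM in wild-type larvae. All *rx3 strong* libraries were above all wild-type libraries. Its log2 difference was 0.43 ± 0.09 (1.34-fold, adjusted p = 0.0031), called with each library left out in turn, and *rx3 weak* larvae lay between the other groups. *got2a* (ENSDARG00000041068), which exchanges amino groups between glutamate and oxaloacetate in mitochondria, had 123, 112, 137 and 113 CPM in *rx3 strong*, 167, 139, 136 and 144 CPM in *rx3 weak* and 154, 135, 143 and 140 CPM in wild-type larvae. It was lower in *rx3 strong* by 0.24 ± 0.08 against wild-type and by 0.27 ± 0.08 against *rx3 weak* larvae on the log2 scale (adjusted p = 0.036 and 0.026). Without any 1 of the 4 wild-type libraries, or without *rx3 strong* ZT3, ZT9 or ZT21, the first call was lost (0.064 to 0.11). The second was lost without *rx3 weak* or *rx3 strong* ZT3, ZT9 or ZT21 (0.082 to 0.11). The cytosolic *got1* (45.9 to 54.3 CPM in *rx3 strong* and 45.7 to 66.9 CPM in wild-type larvae) and the mitochondrial *got2b* (80.3 to 98.3 and 97.8 to 118 CPM) passed no level test in the main edgeR fits. Nor did *zgc:172121* (1.84 to 4.44 and 3.11 to 4.97 CPM) or *IL4I1*, an L-amino acid oxidase of immune cells in mammals, which stayed between 0.105 and 0.630 CPM in the 12 libraries without DEX.

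*apip* (ENSDARG00000003132), an enzyme of the salvage route that returns the methylthio group left by polyamine synthesis to methionine, had 30.8, 42.1, 38.7 and 41.9 CPM in *rx3 strong*, 30.3, 28.2, 24.6 and 28.1 CPM in *rx3 weak* and 32.6, 34.3, 36.9 and 35.2 CPM in wild-type larvae. It set *rx3 weak* apart from the other groups, without overlap. The log2 difference was 0.46 ± 0.10 between *rx3 strong* and *rx3 weak* larvae (adjusted p = 0.0041, called with each library left out in turn) and -0.32 ± 0.10 between *rx3 weak* and wild-type larvae (adjusted p = 0.038, lost at up to 0.14 without any 1 of the wild-type libraries or without *rx3 weak* ZT9, ZT15 or ZT21). The other 3 salvage genes passed no level test. The isomerase *mri1* had 30.1 to 36.8 CPM in *rx3 strong* and 34.5 to 39.3 CPM in wild-type larvae, the enolase-phosphatase *enoph1* 35.5 to 45.3 and 39.2 to 42.0 CPM, and the dioxygenase *adi1* 18.5 to 25.4 and 19.3 to 22.3 CPM.

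Among the DNA methyltransferases only *dnmt3* (ENSDARG00000057830), a de novo methyltransferase of the dnmt3b type, passed a level test. It had 10.3, 9.06, 8.14 and 7.34 CPM in *rx3 strong*, 16.2, 16.5, 8.50 and 11.2 CPM in *rx3 weak* and 12.2, 9.27, 9.42 and 7.89 CPM in wild-type larvae. The high libraries were *rx3 weak* ZT3 and ZT9, and *rx3 strong* and wild-type larvae overlapped. On the log2 scale the difference between *rx3 strong* and *rx3 weak* larvae was -0.56 ± 0.14 (adjusted p = 0.012), lost without *rx3 weak* ZT9 or *rx3 strong* ZT9 (up to 0.092). The other de novo enzymes ran over like ranges in *rx3 strong* and wild-type larvae, with 27.1 to 31.9 and 25.1 to 32.7 CPM for *dnmt3aa*, 108 to 113 and 98.1 to 110 CPM for *dnmt3ab*, 53.8 to 84.9 and 58.9 to 95.4 CPM for *dnmt3b* and 20.0 to 28.8 and 22.5 to 31.4 CPM for *dnmt4*. Methionine synthase *MTR* and the polyamine genes passed no level test. Of the polyamine genes, spermidine synthase *srm* had 21.2 to 23.9 CPM in *rx3 strong* and 22.0 to 32.3 CPM in wild-type larvae, and spermine synthase *sms* 53.6 to 71.8 and 63.4 to 65.8 CPM.

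In the second eyeless line, *rx3 weak* and wild-type larvae differed in 4 of the 39 genes (10.3%), with *ahcyl2a* higher and *mat2ab*, *ahcyl2* and *apip* lower, against 14.1% of all genes tested (6.42% higher and 7.63% lower). *rx3 strong* and *rx3 weak* larvae differed in 10 (25.6%), against 11.8% of all genes (4.68% higher and 7.08% lower). Higher in *rx3 strong* were *mthfd1l*, *aldh1l2*, *aldh1l1*, *apip* and *mat2ab*, and lower were *ahcyl2a*, *dnmt3*, *mat1a*, *mat2al* and *got2a*. These 3 comparisons share libraries, so their values are not independent. The 8 eye markers were lower in both mutants than in wild-type larvae, and 7 of the 8 were also lower in *rx3 strong* than in *rx3 weak* larvae, so the 2 mutants were not matched in these markers. The count between *rx3 weak* and wild-type larvae was 2 without wild-type ZT9, wild-type ZT21 or *rx3 weak* ZT9, and 1 with time point left out of the design. Of all genes, these fits called 2312, 2394, 2397 and 1652 in that order, against 3210 with all libraries. Between *rx3 strong* and *rx3 weak* larvae the count was 5 without *rx3 weak* ZT9, 6 without *rx3 weak* ZT21, *rx3 strong* ZT3 or *rx3 strong* ZT9, and 2 with time point left out of the design. Here 2011, 2019, 2189, 2426 and 1059 of all genes were called in that order, against 2686 with all libraries. *mthfd1l*, *aldh1l1*, *aldh1l2*, *mat1a* and *got2a* were called in the same direction against both *rx3 weak* and wild-type larvae, and none of these 5 passed the test between *rx3 weak* and wild-type larvae in the model of all 12 libraries. With only the 8 libraries of that comparison, *mthfd1l* passed (-0.54, adjusted p = 0.015). In the models of all libraries, 13 of the 39 genes passed at least 1 of the level tests or the test of DEX described below, and 26 passed none.

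Calls for time of day were more common in these genes than calls between genotypes. The time test takes 3 time terms together and each genotype test takes 1, so these counts are not like for like. Without DEX, 19 of the 39 genes (48.7%) varied over the 4 times in a model with a common course for the 3 genotypes, against 17.9% of all genes tested. By role these included 7 of 9 folate genes, 4 of 5 AdoMet synthesis genes, the remethylation gene *MTR*, 4 of 6 DNA methyltransferases, 1 of 3 polyamine genes and 1 of 4 in the AdoHcy hydrolase group, and none of the salvage or of the transamination and sulfur genes. Of the 19, 11 were highest at ZT3 in *rx3 strong*, 15 in *rx3 weak* and 14 in wild-type larvae. Lowest at ZT15 were 8, 14 and 12 in the same order, and lowest at ZT21 were 9, 4 and 6. In *rx3 strong* larvae the low thus stood at ZT21 about as often as at ZT15. The matching counts over all genes are not given here, so these times are not read as a trait of these genes. The calls for *ahcyl2*, *dnmt3*, *mthfd1l*, *mat2al*, *mthfd1b*, *aldh1l1* and *dnmt4* were lost in at least 1 fit with a library left out, and *ahcyl2* was lost in 9 of 12.

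**Figure D3:**
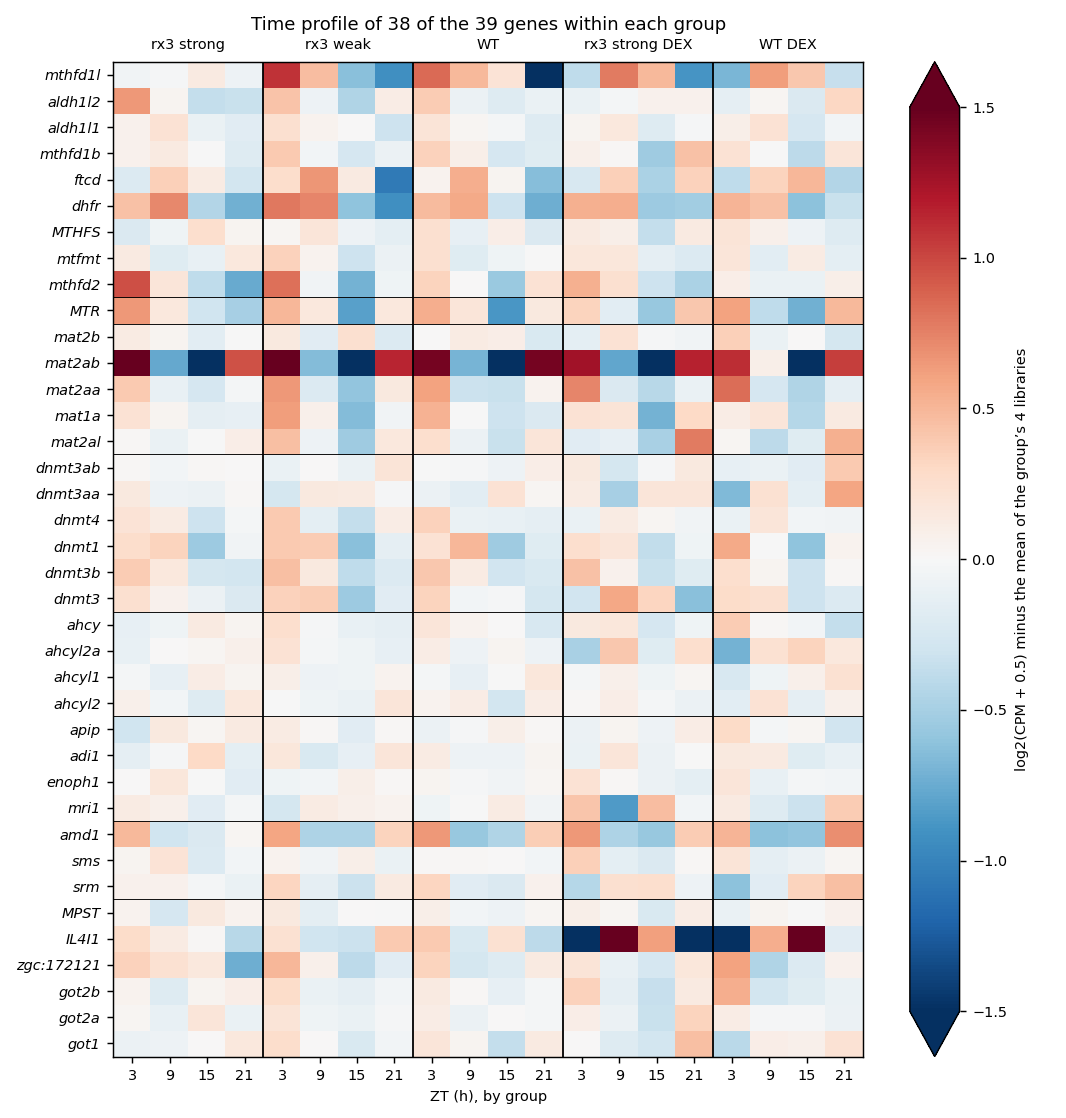
Heat map of log2(CPM + 0.5) minus the mean of the 4 libraries of the same group (colour scale, log2 units), for 38 of the 39 genes ordered by role (y axis) in the 20 libraries ordered by group and *Zeitgeber* time (x axis). High values stand at ZT3 in many AdoMet and folate genes, and *mat2ab* has the deepest low at ZT15, with 4.37 CPM in *rx3 strong*, 2.16 CPM in *rx3 weak* and 3.14 CPM in wild-type larvae.

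*mat2ab* had the widest daily range, with the highest library 10.9 times the lowest in *rx3 strong*, 16.5 times in *rx3 weak* and 14.1 times in wild-type larvae (adjusted p = 7.1e-12 for time of day). Its paralogue *mat2aa*, named here after its values were seen, had 222, 155, 141 and 164 CPM in *rx3 strong*, 308, 170, 130 and 216 CPM in *rx3 weak* and 296, 156, 154 and 201 CPM in wild-type larvae, with the high at ZT3 in each (adjusted p = 8.2e-06). *mat1a* was likewise highest at ZT3 in the 3 groups (adjusted p = 0.00038).

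Dihydrofolate reductase *dhfr* (ENSDARG00000004251), which regenerates tetrahydrofolate after thymidylate synthesis, had 19.6, 24, 10.4 and 8.49 CPM in *rx3 strong*, 26.3, 25.1, 9.72 and 7.67 CPM in *rx3 weak* and 20.7, 22.1, 11.8 and 8.67 CPM in wild-type larvae (adjusted p = 1.3e-07). Levels were high in the day and low at night in the 3 groups. The maintenance methyltransferase *dnmt1*, chosen after its values were seen, had 107, 112, 60.7 and 85.3 CPM in *rx3 strong*, 117, 116, 57.5 and 80.7 CPM in *rx3 weak* and 109, 132, 64.7 and 82.7 CPM in wild-type larvae (adjusted p = 5.9e-07). The summed level of 9 DNA replication markers, all called for time of day, was 798, 1034, 753 and 548 CPM in *rx3 strong*, 932, 1145, 874 and 506 CPM in *rx3 weak* and 1001, 1135, 879 and 551 CPM in wild-type larvae. Its highest value was at ZT9 and its lowest at ZT21 in each group, and its part in the courses of *dhfr* and *dnmt1* was not tested.

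*amd1*, AdoMet decarboxylase and the entry to polyamine synthesis, also chosen after its values were seen, had 363, 211, 222 and 266 CPM in *rx3 strong*, 374, 179, 179 and 311 CPM in *rx3 weak* and 403, 173, 188 and 333 CPM in wild-type larvae (adjusted p = 1.6e-06). The highest library was at ZT3 in the 3 groups, and the *rx3 strong* values ran over a narrower range. Methionine synthase *MTR*, which remethylates homocysteine with a folate carbon, had 36.9, 26.1, 18.9 and 16.5 CPM in *rx3 strong*, 40.6, 32.0, 16.1 and 32.2 CPM in *rx3 weak* and 42.0, 32.6, 15.4 and 31.7 CPM in wild-type larvae. In both other groups the level at ZT21 was above that at ZT15, while in *rx3 strong* larvae it was not. *MTR* was picked after its values were seen.

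**Figure D4:**
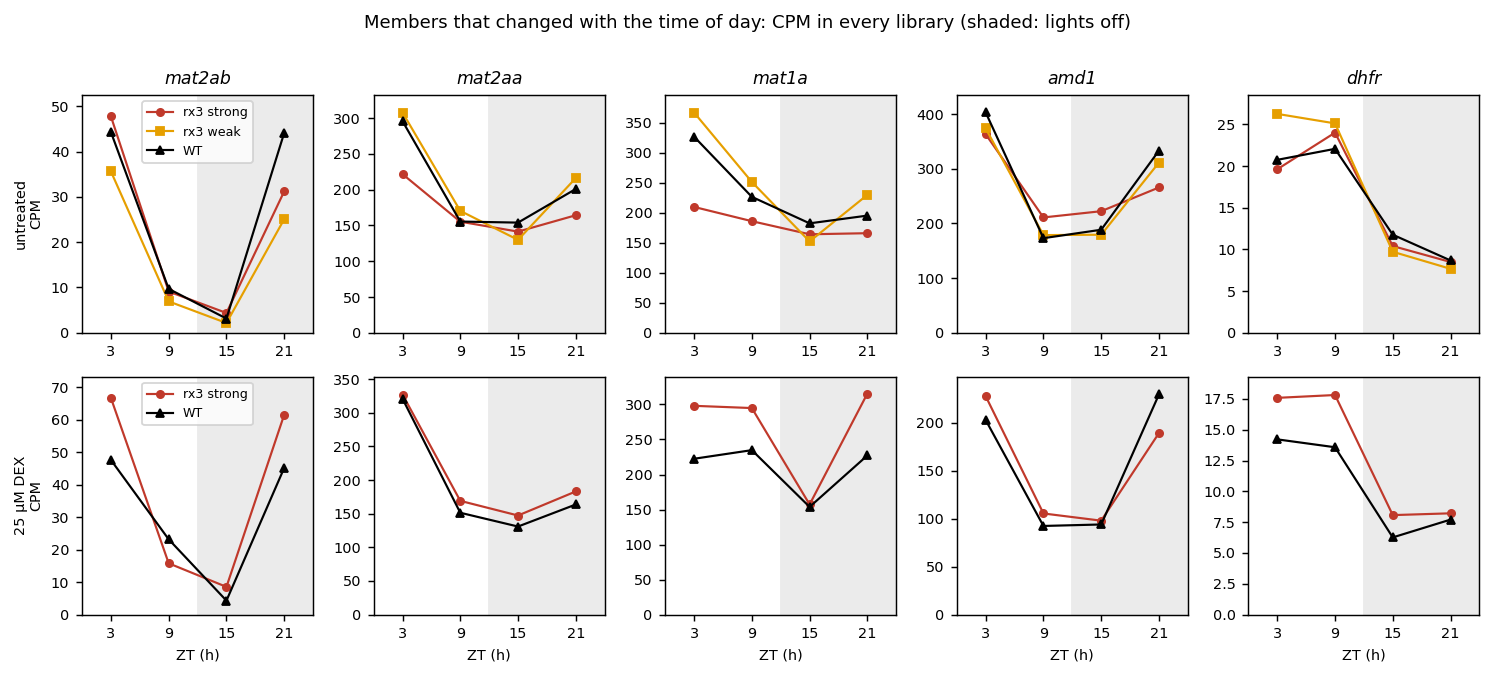
Normalized level (y axis, CPM) of *mat2ab*, *mat2aa*, *mat1a*, *amd1* and *dhfr* at each *Zeitgeber* time (x axis, h), with 1 library per point, for *rx3 strong*, *rx3 weak* and wild-type larvae without DEX (upper row) and *rx3 strong* and wild-type larvae with DEX (lower row). *mat2ab* falls to 4.37 CPM in *rx3 strong*, 2.16 CPM in *rx3 weak* and 3.14 CPM in wild-type larvae at ZT15, and *mat1a* spans 164 to 210 CPM in *rx3 strong*, 152 to 367 CPM in *rx3 weak* and 182 to 326 CPM in wild-type larvae.

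To ask whether the daily course itself differed between *rx3 strong* and wild-type larvae, 24 h cosine and sine terms were compared between the genotypes. In edgeR this test called 0 of the 39 genes at an adjusted p under 0.05, against 0% of all genes tested, and in DESeq2 0 of the 39 and 6 of all genes. An unadjusted p under 0.05 in edgeR was reached by 1 of the 39 and by 656 of all genes. The smallest edgeR adjusted p of any gene was 0.43. The model left few libraries beyond its fitted terms, so the 0 calls do not show a shared daily course. The study's kind of model selection, a harmonic regression that assigns each gene to the best of 15 patterns by an information criterion (BIC) weight without a test, was described as well. It placed 20 of the 38 genes with enough signal in patterns in which *rx3 strong* lost or changed its rhythm, against 31.0% of the genes with enough signal. *rx3 strong* alone was different for 13 genes, against 1851 of the 19605 genes with enough signal. Among the 13 were *mat2aa*, *MTR*, *amd1*, *ftcd*, *aldh1l2* and *ahcy*. All 3 genotypes were different for 6, against 2342 of the 19605. *rx3 strong* was not rhythmic for 1, *mthfd1l*, against 1879 of the 19605. The share was larger than that of genes in general mainly in the first pattern, and it was not larger in the last. The same rhythm in the 3 genotypes was given to 4 genes, *mat2ab*, *dnmt1*, *dnmt3b* and *aldh1l1*, against 2335 of the 19605. That share was close to that of genes in general.

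The fitted peak-to-trough range in log2 units was 0.38 in *rx3 strong*, 1.24 in *rx3 weak* and 0.86 in wild-type larvae for *mat1a*, and 0.19, 1.97 and 1.92 for *mthfd1l* in the same order. For *amd1* it was 0.78, 1.30 and 1.43. These genes had the smallest range in *rx3 strong*. The range was smaller in *rx3 strong* than in both other groups for 16 of 39, against 38.1% of the genes with enough signal. By this count the 39 genes were close to genes in general. The range was smaller in *rx3 weak* than in wild-type larvae for 8 of the 39, against 49.5%. The median range of the 39 genes was 0.341 in *rx3 strong*, 0.532 in *rx3 weak* and 0.348 in wild-type larvae. Over the genes with enough signal it was 0.313, 0.313 and 0.317. With 4 libraries per genotype and 3 fitted terms each, these patterns rest on single libraries at each time.

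With DEX, the level test between *rx3 strong* and wild-type larvae called 0 of the 39 genes in edgeR, against 7.8% of all genes tested (3.4% higher and 4.4% lower). This fit held 8 libraries, against 12 in the fit without DEX, so the 0 calls do not show equal levels in the genotypes. An unadjusted p under 0.05 was reached by 7 of the 39 and by 4737 of the 23411 genes tested, and DESeq2 called 1 of the 39, *MPST*, and 2373 genes in all. *MPST* had 26.9, 25.8, 21.6 and 27.4 CPM in *rx3 strong* larvae with DEX and 17.1, 18.8, 18.2 and 19.1 CPM in wild-type larvae with DEX. These groups did not overlap, as without DEX, and the log2 difference was 0.47 ± 0.13 (adjusted p = 0.057 in edgeR). Its change from the difference without DEX was 0.01 (adjusted p = 0.99).

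*mthfd1l* had 7.02, 16.3, 13.3 and 4.80 CPM in *rx3 strong* larvae with DEX, against 8.18, 21.04, 17.9 and 10.4 CPM in wild-type larvae with DEX. The order of the genotypes was thus the reverse of that without DEX at each time, although the difference with DEX, -0.53 ± 0.17, did not pass the test (adjusted p = 0.1). The genotype difference changed between the libraries without and with DEX by -2.46 ± 0.40 on the log2 scale (adjusted p = 0.0063), and this call held with each of the 16 libraries left out in turn (adjusted p = 0.0027 to 0.028). It was the 1 call of this kind among the 39 genes, against 2.22% of all genes tested (1.41% higher and 0.815% lower), while 10 of the 39 and 3204 of the 23546 genes tested had an unadjusted p under 0.05. A second gene, *mat1a*, was called without the wild-type or without the *rx3 strong* ZT15 library with DEX. Each of these fits called 532 of all genes, against 523 with all libraries. Since kit and treatment changed together, this is a change between both kinds of library. With DEX, the summed liver markers had 10340, 8867, 4909 and 7342 CPM in *rx3 strong* and 7815, 6198, 4544 and 4228 CPM in wild-type larvae. Their part in the levels of *mthfd1l* with DEX was not tested.

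For *aldh1l1* the levels were 129, 141, 110 and 125 CPM in *rx3 strong* larvae with DEX and 142, 155, 112 and 130 CPM in wild-type larvae with DEX, a log2 difference of -0.08 (adjusted p = 0.77), and its change from the difference without DEX did not pass the test (-0.49, adjusted p = 0.064). *aldh1l2* had 10.9, 11.6, 12.4 and 12.4 CPM in *rx3 strong* and 10.6, 12.0, 9.98 and 14.6 CPM in wild-type larvae with DEX, a log2 difference of 0.02 (adjusted p = 0.97). The 2 groups with DEX overlapped for both genes. *mat1a* had 298, 295, 157 and 316 CPM in *rx3 strong* and 223, 235, 154 and 227 CPM in wild-type larvae with DEX, so that *rx3 strong* was above wild-type at each time, opposite to the libraries without DEX. Neither its difference with DEX (0.31 ± 0.13, adjusted p = 0.2) nor the change (0.61 ± 0.15, adjusted p = 0.056) passed in the main edgeR fits. The change of *mat1a* was called without the ZT15 library of either genotype with DEX. It was also called with DESeq2, with DESeq2 size factors and without the low-count filter.

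For the other genes called without DEX, *ahcy* had 1107, 1122, 835 and 953 CPM in *rx3 strong* and 1189, 921, 887 and 715 CPM in wild-type larvae with DEX. *ahcyl2* had 74.8, 79.3, 72.4 and 69.3 CPM in *rx3 strong* and 77.5, 101, 79.1 and 91.3 CPM in wild-type larvae with DEX, again lower in *rx3 strong* at each time without passing the test. *got2a* had 143, 126, 106 and 169 CPM in *rx3 strong* and 162, 148, 148 and 141 CPM in wild-type larvae with DEX, with overlap. *ahcyl2a* ran over 32.3 to 60.4 CPM in *rx3 strong* and 21.04 to 43.9 CPM in wild-type larvae with DEX, *mat2al* over 11.9 to 29.5 and 15.2 to 29.4 CPM, *apip* over 33.9 to 38.97 and 32.9 to 48.8 CPM, and *dnmt3* over 3.76 to 9.36 and 3.58 to 5.65 CPM. The ranges overlapped for these 4 genes.

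**Figure D5:**
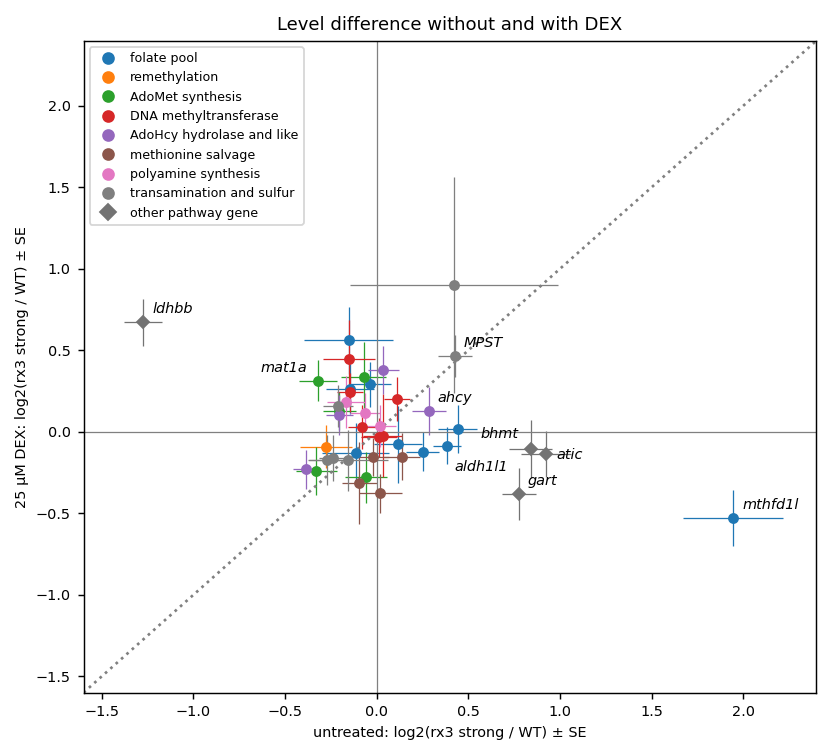
Log2 difference between *rx3 strong* and wild-type larvae without DEX (x axis) and with DEX (y axis) for 38 of the 39 genes and for *ldhbb*, *atic*, *bhmt* and *gart* of the genes left out by the rule. *mthfd1l* lies at 1.94 and -0.53, and *MPST* at 0.43 and 0.47.

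Time of day with DEX was called for 10 of the 39 genes (25.6%), against 12.5% of all genes tested. They included *mat2ab*, *amd1*, *mat2aa*, *dhfr*, *MTR*, *mthfd1l*, *IL4I1*, *mat2al* and *mat1a*, and each of these except *IL4I1* was also called without DEX. *mat2ab* had 66.7, 15.8, 8.53 and 61.6 CPM in *rx3 strong* and 47.6, 23.2, 4.28 and 45.2 CPM in wild-type larvae with DEX (adjusted p = 0.0025), again low at ZT15. *mat2aa* had 327, 169, 147 and 183 CPM in *rx3 strong* and 321, 151, 131 and 164 CPM in wild-type larvae with DEX (adjusted p = 0.0074), and *amd1* 228, 106, 97.98 and 189 CPM in *rx3 strong* and 203, 92.5, 94.0 and 230 CPM in wild-type larvae with DEX (adjusted p = 0.0066). The courses of both genes ran close together in the 2 genotypes. *dhfr* had 17.6, 17.8, 8.07 and 8.22 CPM in *rx3 strong* and 14.2, 13.6, 6.26 and 7.71 CPM in wild-type larvae with DEX (adjusted p = 0.01). The calls for *mat2ab*, *amd1* and *dhfr* held with each of the 8 libraries left out in turn, whereas that for *mat1a* held in 1 of 8 and that for *mat2al* in 2 of 8. The count was 4 without wild-type ZT3 and 6 without *rx3 strong* ZT3. Of all genes, these fits called 522 and 1540, against 2936 with all libraries.

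The test of a different daily course between *rx3 strong* and wild-type larvae with DEX called 0 of the 39 genes in edgeR, against 0% of all genes tested, and in DESeq2 0 of the 39 and 36 of all genes. An unadjusted p under 0.05 in edgeR was reached by 1 of the 39, *IL4I1*, and by 305 of all genes. The smallest edgeR adjusted p of any gene was 0.22. Here too the 0 calls do not show a shared daily course. In the model selection with DEX, 12 of the 39 genes were given the same rhythm in both genotypes, against 25.8% of the genes with enough signal. Of the 20 genes in which *rx3 strong* had lost or changed its rhythm without DEX, 7 were given the same rhythm in both genotypes with DEX (among them *mat1a*, *mat2aa*, *mat2al*, *mthfd1b*, *ahcy* and *got2b*), 5 had different rhythms, 5 were ambiguous, 2 were rhythmic in wild-type larvae only and 1 was not rhythmic. Of all genes, 6072 were placed in those patterns without DEX, of which 1491 (24.6%) were given the same rhythm with DEX. Different rhythms were given to 21.7% of the 6072, and 31.3% were ambiguous. Another 5.22% were rhythmic in wild-type larvae only, 3.06% in *rx3 strong* only, and 6.75% were not rhythmic. The remaining 7.35% had too little signal with DEX, which was the case for none of the 39 genes. The 12 genes with the same rhythm became 2 without wild-type ZT21, 4 without wild-type ZT3, 5 without wild-type ZT9 or ZT15 and 6 without *rx3 strong* ZT9 or ZT15. A genotype short of 1 library has as many libraries as fitted terms, so a rhythm of its own fits any gene exactly. The matching counts over all genes are not given here, so this fall is not read as a trait of these genes.

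The 19 genes under the same headings that the rule leaves out include *shmt1*, *shmt2*, *tyms*, *bhmt*, *cbsa*, *cbsb*, *cth* and *mtap*. These were left out for their other headings, not for their place in the pathway. Time of day without DEX was called for 15 of the 19 (78.9%), against 48.7% of the 39 genes and 17.9% of all genes tested. Change with time of day was thus not particular to the 39 genes. Among the 19, 10 differed between *rx3 strong* and wild-type larvae without DEX, 5 higher and 5 lower. The share of all genes, given above, was 18.6% (8.4% higher and 10.2% lower). Within the 19, the difference was largest for *ldhbb*, *atic*, *bhmt* and *gart*. *bhmt* (ENSDARG00000013430), which remethylates homocysteine with betaine in the liver, had 2095, 1993, 1749 and 2285 CPM in *rx3 strong*, 1344, 1076, 860 and 869 CPM in *rx3 weak* and 1468, 1298, 1052 and 817 CPM in wild-type larvae, without overlap (0.84 ± 0.12, adjusted p = 3.5e-05). Of the purine enzymes that consume formyl groups, *gart* (ENSDARG00000051855) had 62.8, 57.1, 58.2 and 65.3 CPM in *rx3 strong* and 46.9, 34.4, 30.3 and 32.9 CPM in wild-type larvae (0.77 ± 0.09, adjusted p = 5.5e-06). *atic* (ENSDARG00000016706) had 44.8, 45.4, 37.3 and 40.3 CPM in *rx3 strong* and 34.6, 26.5, 15.97 and 16.4 CPM in wild-type larvae (0.92 ± 0.14, adjusted p = 7.3e-05). Like *mthfd1l*, these 3 genes were higher in *rx3 strong* at each time, and the part of the liver markers in this was not tested.

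The lactate dehydrogenase gene *ldhbb* (ENSDARG00000071076) went the other way, with 9.11, 12.3, 14.5 and 13.3 CPM in *rx3 strong*, 15.46, 17.3, 27.8 and 24.2 CPM in *rx3 weak* and 21.9, 22.5, 40.1 and 36.9 CPM in wild-type larvae (-1.27 ± 0.10, adjusted p = 2.8e-08). The *rx3 strong* libraries did not overlap either other group, and the *rx3 weak* libraries lay between. The change of the genotype difference with DEX was 1.92 ± 0.19 for *ldhbb* (adjusted p = 0.00028), -1.18 ± 0.19 for *gart* (0.0062) and -1.07 ± 0.21 for *atic* (0.019), and for *bhmt* it did not pass (-0.97 ± 0.24, adjusted p = 0.06). For *atic* this call held in 10 of 16 fits with a library left out. With DEX, *gart* had 20.6, 10.4, 11.1 and 14.9 CPM in *rx3 strong* and 37.0, 14.6, 11.8 and 16.2 CPM in wild-type larvae, and *ldhbb* 126, 106, 89.6 and 113 CPM in *rx3 strong* and 75.6, 58.7, 77.9 and 60.6 CPM in wild-type larvae.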

How the data were processed

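Whole larvae were sequenced on the Illumina platform. According to the study's methods, the authors aligned reads with STAR to the zebrafish genome (build Zv9) and assigned them to Ensembl genes with HTSeq. The deposited raw counts per gene, whole numbers that were not normalized, were used here with the deposited gene length in bases (0 per-sample columns were left unassigned). The deposited log2 values, normalized by the authors, were used only in an alternative to the model selection. Whether counting used strand is not given in the sources used here, and reads of near-identical copies (*mat2aa*, *mat2ab* and *mat2al*, the *dnmt3* genes, *ahcyl2* and *ahcyl2a*) may be split between them.

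Counts were fitted for all genes with edgeR 4.0.16 in R 4.3.3 (quasi-likelihood F test, TMM normalization, filterByExpr, Benjamini-Hochberg adjustment over all genes tested, threshold 0.05), with genotype and time point as factors. The 12 untreated and the 8 DEX libraries were fitted separately, and the interaction of genotype and DEX was fitted on the 16 *rx3 strong* and wild-type libraries. As each group has 1 library per time point, time points act as blocks, p-values measure the spread around a common daily course, and no separate cultures repeat a condition. CPM were scaled by TMM within the untreated and the DEX libraries. For the model selection, variance-stabilized values (VST, DESeq2 1.42.0) were fitted by 24 h harmonic regression, with a BIC weight of at least 0.3 (untreated, 15 models) or 0.5 (DEX, 5 models) and a mean VST of at least 6. The testing code was tested on simulated data. Python 3.11.15, numpy 2.4.6, pandas 2.3.3 and matplotlib 3.10.9 were used for tables and figures.

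Values in each library without DEX are given for members past the threshold in a level comparison or the interaction with a mean of at least 50 counts, and for the 3 members with the widest daily range. With DEX, *ahcyl2a*, *mat2al*, *apip* and *dnmt3* are given as ranges. Of the 4 genes named among those left out by the rule, *gart* and *atic* are given without *rx3 weak* values, and *atic* and *bhmt* without DEX values. The members, the marker lists and the tests were chosen with earlier results of these data known. Of the marker lists, 8 of 13 eye, 9 of 10 liver, 9 of 13 DNA replication, 3 of 5 pituitary and 4 of 4 GC target genes matched the count table by name. Of the pituitary markers, *gh1* had at most 7 counts in the *rx3 strong* libraries without DEX. The values of 1 of the 39 genes are not reported here, though it is part of the counts. Gene names are those of the study's list. The reference names, given for 35 of the 39 genes, differ beyond letter case for 12 (*MPST* is TST there, *dnmt3* is *dnmt3bb.2*, *dnmt4* is DNMT3B and *ahcyl2* is *ahcyl2b*), and *ahcyl2a* is a reference name. Alternatives were DESeq2, its size factors, no filter beyond 1 count in total, time point left out of the design, the 8 libraries of each comparison alone, other BIC and VST limits, log2 CPM or the deposited values in the model selection, and each library or time point left out in turn.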

Additional observations from a re-analysis of the deposited data

Results flagged for a closer look

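Among the 70 groups of 4 libraries formed by 14 genes and the 5 groups, 4 held a library far from the other 3, and chance marks about 1 in 20 groups. *ahcyl2* was lowest in wild-type larvae without DEX at ZT15, with 86.2 CPM. *aldh1l2* was highest in wild-type larvae without DEX at ZT3, with 28.0 CPM, the library whose omission ended its level call. *mat1a* was lowest at ZT15 with DEX in both genotypes, with 157 CPM in *rx3 strong* and 154 CPM in wild-type larvae. Each library of a group is a different time of day, so a stray library and a time of day cannot be told apart.

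The interaction test in edgeR was looked up for these 14 genes and for *ldhbb*, *atic*, *bhmt* and *gart*, which the rule leaves out. It called a changed difference between *rx3 strong* and wild-type larvae in 4 of them, against 2.22% of all genes tested. Of the 39 genes, *mthfd1l* alone was called. The 14 genes were named for a call in a level comparison or in this test, or for a wide daily range. The genes left out by the rule were named for their large difference without DEX, which is itself part of this test. Both choices used values that enter this test, so the 4 calls cannot be read against the share of all genes. The change in log2 difference was -2.46 for *mthfd1l*, 1.92 for *ldhbb*, -1.07 for *atic* and -1.18 for *gart*.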

How the results depend on the processing

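None of the single-gene results examined changed direction under any alternative run. With time point left out of the design, 3 genes were called between *rx3 strong* and wild-type, 1 between *rx3 weak* and wild-type and 2 between *rx3 strong* and *rx3 weak* larvae. These fits called 2078, 1652 and 1059 of all genes, against 4252, 3210 and 2686 in the main fits. With only the 8 libraries compared, 7 were called between *rx3 weak* and wild-type larvae, the added ones being *dnmt3*, *mat2b* and *mthfd1l*. Between *rx3 strong* and wild-type larvae *ahcy* was lost and *mat2al* was gained. Between *rx3 strong* and *rx3 weak* larvae *aldh1l1*, *got2a* and *mat2al* were lost. Of all genes, these fits called 4073 between *rx3 weak* and wild-type, 4029 between *rx3 strong* and wild-type and 1985 between *rx3 strong* and *rx3 weak* larvae. Between *rx3 strong* and wild-type larvae, DESeq2 and its size factors each called 10, adding *ahcyl1* and *mat2al*. Of all genes they called 3962 and 4246. No filter gave 11, adding *got1*, *mat2al* and *mthfd1b*, and 4337 of all genes. Between *rx3 strong* and *rx3 weak* larvae DESeq2 called 11 and 2577 of all genes, and no filter 12 and 2878. For time of day with DEX, DESeq2 called 15 of the 39 genes and 5140 of all genes, and no filter gave 13 and 4252. DESeq2 called 1 gene (*MPST*) between *rx3 strong* and wild-type larvae with DEX, and 2373 of all genes. For the interaction it called 3 (*aldh1l1*, *mat1a* and *mthfd1l*) and 869 of all genes, against 523 in the main fit. Its size factors gave 2 and 537 for the interaction, and no filter gave 2 and 751, with *mat1a* and *mthfd1l* called in both. No filter also gave 1 for the difference in daily course without DEX (*mthfd1l*), and 79 of all genes. A BIC weight of 0.7 left 7 genes with the same rhythm in both genotypes with DEX. A higher limit can only lower this count, and the count over all genes is not given here. The cause of these shifts was not tested. Leaving out 1 library gave 4 to 13 genes for *rx3 strong* against wild-type, 2 to 5 for *rx3 weak* against wild-type, 5 to 14 for *rx3 strong* against *rx3 weak*, 13 to 20 for time of day without DEX and 4 to 9 with DEX, 0 for level with DEX, 1 to 2 for the interaction, and 18 to 25 and 2 to 10 genes in the model selection without and with DEX. Of all genes, these edgeR fits called 3061 to 4518, 2206 to 3586 and 2011 to 2620 in the level comparisons without DEX, in that order. For time of day they called 2986 to 4305 without DEX and 522 to 2941 with DEX. Level with DEX had 1085 to 1501, and the interaction 213 to 691. For the model selection the counts over all genes are not given here. There, a genotype short of 1 library has as many libraries as fitted terms. Leaving out a time point gave 4 to 12 genes for *rx3 strong* against wild-type, 1 to 4 for *rx3 weak* against wild-type, 3 to 13 for *rx3 strong* against *rx3 weak*, 11 to 19 for time of day without DEX, 5 to 13 with DEX and 1 to 2 for the interaction. Of all genes, these fits called 2924 to 3561, 2063 to 2505, 1776 to 2224, 2745 to 3824, 459 to 3264 and 150 to 381 in that order. The level comparisons are paired by time point, which is the block in each of them, and the fits with time point left out, given first, are those without this pairing. With 1 library per group and time, a difference at a single time was not tested.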

Other observations

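*IL4I1* was close to the detection limit without DEX. With DEX it had 0.928, 36.8, 7.24 and 1.08 CPM in *rx3 strong* and 0.195, 3.62, 8.47 and 2.01 CPM in wild-type larvae at ZT3, ZT9, ZT15 and ZT21. The levels were low at ZT3 and ZT21 and higher at ZT9 and ZT15 in both genotypes, and the *rx3 strong* ZT9 library stood above the rest. Time of day was called with DEX (edgeR, adjusted p = 0.028), a call lost without the ZT3 library of either genotype (adjusted p up to 0.11), while the genotype difference of 0.90 ± 0.66 did not pass (adjusted p = 0.53). This gene was chosen after its values were seen.

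*mthfd2*, also chosen after its values were seen, had 12.4, 10.1, 6.73 and 5.95 CPM in *rx3 strong* larvae with DEX and 6.14, 5.28, 5.26 and 6.07 CPM in wild-type larvae with DEX. Without DEX it had 5.54, 2.99, 1.86 and 1.32 CPM in *rx3 strong* and 3.89, 2.99, 1.86 and 3.52 CPM in wild-type larvae. In *rx3 strong* it was highest at ZT3 and lowest at ZT21 both times. Its level difference with DEX was 0.56 ± 0.20 (edgeR, adjusted p = 0.15).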
